A study of Mus musculus with 3 samples.

Results

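The 250 regions described here are promoter peaks of the histone mark H3K4me3 that were at least 1.4 times as long in the TGFB1 library as in the Ctrl library. They were chosen from the peak lists by 4 conditions. The TGFB1 peak lay within 2000 bp of a transcription start site (TSS), it overlapped exactly 1 Ctrl peak that overlapped no other TGFB1 peak, its length was at least 1.4 times that of the Ctrl peak, and it was shorter than 2500 bp. The first 2 conditions left 8145 promoter pairs, 1 peak from each list, of which 250 (3.07%) met the other 2. They carried 249 gene names, since Cic was counted at 2 separate promoters. The TGFB1 and Ctrl lengths chose the regions, so those lengths are given as a description. The other 7895 pairs are the ground they are set against.

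The cells were MLg, a fibroblast line from mouse lung, and H3K4me3 was precipitated with the antibody ab8580. The groups were TGFB1+miR-9-LOF (miR-9 antagomiR at 60 nM, then TGFB1), TGFB1 (5 ng/ml for the last 4 h of 24 h) and Ctrl (treatment label WT), with 1 library each. According to the study, the cells had been transfected with either a Ctrl or a miR-9-specific antagomiR probe. The labels do not name the probe of the TGFB1 and Ctrl libraries one by one. With 1 library a group no difference has a replicate check, no test was run, and the 95% Wilson intervals below cover counting error only. The lists held 4959 peaks in TGFB1+miR-9-LOF, 9116 in TGFB1 and 8727 in Ctrl, and carried no read counts, so depth was unknown. Of 11 fibroblast markers, 6 had a promoter peak in TGFB1+miR-9-LOF, 8 in TGFB1 and 8 in Ctrl. None of 8 epithelial or 5 endothelial markers had one in any library, and of 6 immune markers only Cd14 had one, in TGFB1 and Ctrl.

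H3K4me3 is written at the promoters of active genes by the SET1 and MLL methyltransferase complexes, which are brought to CpG-rich DNA by CXXC-domain proteins. The mark flanks the nucleosome-depleted start site, mostly on the downstream side, and its width differs between genes. TGFB1 is a cytokine that activates SMAD transcription factors in fibroblasts and drives their conversion into contractile, matrix-producing myofibroblasts. The microRNA miR-9 is known in the cytoplasm as a repressor of messenger RNAs, and the study asked about its role in the nucleus.

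At part of the promoters the added length took in the sequence just before the start. RefSeq promoter windows of GRCm38.p6 (the same coordinates as mm10) were matched for 182 of the 250 regions. Of the 250 bases before the TSS, all were added in TGFB1, that is under the TGFB1 peak and outside the Ctrl peak, at 36 of the 182 (19.8%), against 98 of 6195 other pairs (1.58%), a contrast that the choice by added length sets in large part. At a further 55 the edge of a peak ran through these bases. Such edges are shown at 2 genes, in sequences read 5′ to 3′ up to the last base before the TSS. They are edges of called peaks, and their precision in bases is not known. Myl9 encodes a regulatory light chain of myosin and Dlx1 a homeobox transcription factor. Capitals mark the bases under the TGFB1 peak and outside the Ctrl peak.
Myl9 (chr2:156775214-156775463, plus strand): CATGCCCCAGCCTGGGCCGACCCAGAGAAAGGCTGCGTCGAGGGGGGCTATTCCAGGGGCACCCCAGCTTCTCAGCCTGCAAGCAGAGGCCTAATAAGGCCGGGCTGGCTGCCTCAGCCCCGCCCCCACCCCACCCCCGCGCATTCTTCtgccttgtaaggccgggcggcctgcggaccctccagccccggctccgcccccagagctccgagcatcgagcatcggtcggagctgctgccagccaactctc
Dlx1 (chr2:71529195-71529444, plus strand): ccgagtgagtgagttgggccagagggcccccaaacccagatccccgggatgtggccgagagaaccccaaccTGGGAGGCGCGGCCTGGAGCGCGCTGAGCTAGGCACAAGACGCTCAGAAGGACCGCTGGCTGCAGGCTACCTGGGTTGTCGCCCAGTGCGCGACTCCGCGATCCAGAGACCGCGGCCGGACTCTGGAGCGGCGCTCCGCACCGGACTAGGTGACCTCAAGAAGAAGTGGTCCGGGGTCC
At Myl9 149 of these bases were added and 101 were already under the Ctrl peak, and at Dlx1 179 were added and none lay under it. The lower-case bases of Dlx1 were outside both peaks.

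The other sequences show what lay in the added bases where G-rich runs were found. A G-quadruplex match was taken as 4 runs of at least 3 G with loops of 1 to 7 bases, on either strand. In the 300-base windows (250 before to 50 after the TSS) it was found at 68 of 182 of the regions (37.4%, 30.7 to 44.6), at 29.6% of the windows of other pairs (28.4 to 30.7) and at 18.6% of all 32851 mouse windows. These shares cover whole windows, whether or not the matched bases were added, and were not taken at equal Ctrl length. The 5 genes shown had none of their 250 upstream bases under the Ctrl peak. They do not stand for all matches, since at Ankrd40 and Fosb the matched upstream bases lay wholly under the Ctrl peak. Arhgef11 encodes a guanine nucleotide exchange factor, Nfil3 a basic leucine zipper repressor, Pcgf2 a subunit of Polycomb repressive complex 1, Rock2 a serine/threonine kinase of the cytoskeleton, and Enah an actin regulator of the Ena/VASP family. Capitals mark the matched runs with their loops.
Arhgef11 (chr3:87617309-87617558, plus strand): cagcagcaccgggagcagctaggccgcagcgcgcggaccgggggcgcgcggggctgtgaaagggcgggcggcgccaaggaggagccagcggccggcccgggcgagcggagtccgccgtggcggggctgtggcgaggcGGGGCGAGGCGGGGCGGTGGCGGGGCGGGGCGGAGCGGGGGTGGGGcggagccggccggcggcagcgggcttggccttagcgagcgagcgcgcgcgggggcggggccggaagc
Nfil3 (chr13:52981040-52981289, minus strand): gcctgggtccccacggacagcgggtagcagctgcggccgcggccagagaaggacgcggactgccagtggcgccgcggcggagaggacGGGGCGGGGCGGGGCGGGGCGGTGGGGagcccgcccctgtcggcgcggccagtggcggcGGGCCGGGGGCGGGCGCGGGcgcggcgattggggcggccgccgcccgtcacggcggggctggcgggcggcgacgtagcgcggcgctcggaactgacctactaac
Pcgf2 (chr11:97699649-97699898, minus strand): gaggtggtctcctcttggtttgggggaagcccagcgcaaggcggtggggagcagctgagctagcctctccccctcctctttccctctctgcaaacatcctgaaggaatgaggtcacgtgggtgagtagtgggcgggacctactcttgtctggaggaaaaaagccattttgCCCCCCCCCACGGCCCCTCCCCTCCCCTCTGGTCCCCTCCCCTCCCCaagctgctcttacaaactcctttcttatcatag
Rock2 (chr12:16894728-16894977, plus strand): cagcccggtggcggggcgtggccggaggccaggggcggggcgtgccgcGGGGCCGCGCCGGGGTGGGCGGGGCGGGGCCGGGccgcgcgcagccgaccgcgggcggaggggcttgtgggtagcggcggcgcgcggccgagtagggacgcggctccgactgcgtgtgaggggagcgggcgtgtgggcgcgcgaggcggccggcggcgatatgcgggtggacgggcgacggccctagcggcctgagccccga
Enah (chr1:182019981-182020230, minus strand): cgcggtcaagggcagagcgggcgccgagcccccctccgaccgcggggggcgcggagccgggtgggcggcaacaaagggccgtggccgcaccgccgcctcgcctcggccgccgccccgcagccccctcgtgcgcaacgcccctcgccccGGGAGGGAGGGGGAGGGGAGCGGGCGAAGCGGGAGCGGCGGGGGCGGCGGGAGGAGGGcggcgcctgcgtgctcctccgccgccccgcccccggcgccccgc
The matched bases numbered 46 at Arhgef11, 47 at Nfil3, 47 at Pcgf2, 34 at Rock2 and 58 at Enah, all of them in added sequence. At Pcgf2 the match was on the opposite strand and reads as runs of C.

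The widened peaks were short peaks in Ctrl that reached the usual promoter peak length in TGFB1. Their lengths ranged between 1414 and 2498 bp in TGFB1 (median 1735 bp), and between 1000 and 1730 bp in Ctrl (median 1138.5 bp). The other pairs had medians of 1777 bp in TGFB1 and 1717 bp in Ctrl. The ratio of TGFB1 to Ctrl length had a median of 1.49 and a maximum of 2.32 over the 250 regions, and a median of 1.04 over the other pairs. The added length had a median of 586 bp (412 to 1332 bp) and summed to 155.8 kb. With the classes used in the study, 65 of the 250 were medium peaks (2000 bp or longer) in TGFB1. None was medium in Ctrl, which the choice set in advance, since no Ctrl peak above 1785 bp could meet both limits. Most lay near the limit, with 135 of the 250 at a ratio under 1.5 and 10 at 1.8 or more. A change of the same size in the other direction, Ctrl at least 1.4 times as long as TGFB1, was found at 53 pairs of any length (0.651%), against 292 (3.59%) with the TGFB1 peak the longer, or at 47 with the Ctrl peak under 2500 bp, against the 250. Over all promoter pairs, at any ratio, the TGFB1 peak was the longer at 5237 and the shorter at 2891. The part of library depth in this shift was not tested.

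**Figure D1:**
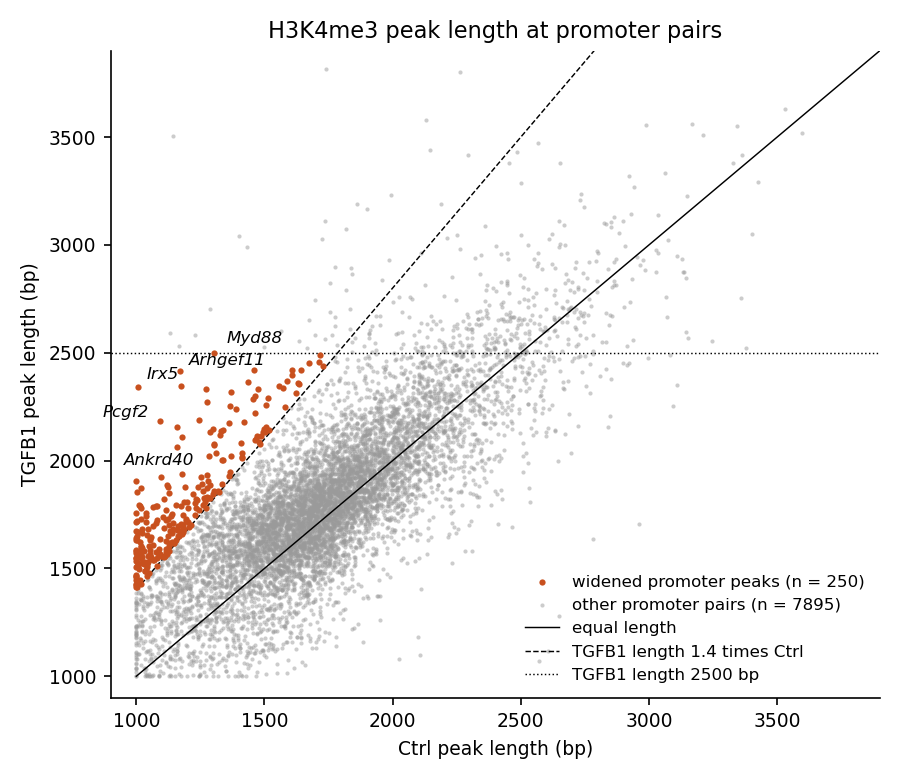
Length of the TGFB1 peak (vertical axis, bp) against length of the Ctrl peak (horizontal axis, bp) for 8145 promoter pairs, 1 point a pair, with the 250 widened peaks in orange and the 7895 others in grey. Lines mark equal length, the ratio of 1.4 and the TGFB1 length of 2500 bp that bounded the choice, and the widened peaks sit at Ctrl lengths of 1000 to 1730 bp.

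The limits cut through a continuous range. Just inside the ratio of 1.4 were Setdb1 (an H3K9 methyltransferase), with 1511 bp in TGFB1 and 1079 bp in Ctrl, and Dzip1, Gm10575 and Zdhhc13. Just outside it were 4921524J17Rik, Tcf19, Rps24 and Brd7, at ratios of 1.398 to 1.39975. Just inside the length limit lay Myd88 (2498 bp), Mat2b (2491 bp), Pgk1 (2456 bp) and Mbd3 (2454 bp) in TGFB1, and just outside it Fbxo30 (2523 bp), Msn (2528 bp), Mecom (2530 bp) and Fbxw7 (2535 bp). The length limit left out 42 pairs that passed the ratio, 292 pairs having passed it at any length. Among them was Sgk1, a kinase gene with 3504 bp in TGFB1 and 1142 bp in Ctrl, a ratio of 3.07 that was above every ratio among the 250.

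The largest ratios belonged to genes with unlike roles, several of them regulators of transcription. Irx5, a homeobox gene, had 2339 bp in TGFB1 (chr8:92355939-92358277) and 1007 bp in Ctrl (chr8:92354948-92355954), a ratio of 2.32. Only 16 bp were shared between those peaks, and the Ctrl peak was assigned to the neighbouring transcript Crnde, so at Irx5 the ratio compares peaks that lay mostly side by side. Arhgef11 followed with 2414 bp in TGFB1 (chr3:87617360-87619773) and 1171 bp in Ctrl, and here the Ctrl peak lay wholly within the TGFB1 peak. Nfil3 had 2345 bp in TGFB1 and 1174 bp in Ctrl (ratio 2.00), and Pcgf2 had 2182 bp in TGFB1 and 1094 bp in Ctrl (ratio 1.99). None of these 4 had a TGFB1+miR-9-LOF peak.

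Myd88, the adaptor of Toll-like and interleukin-1 receptors, had 1522 bp in TGFB1+miR-9-LOF, 2498 bp in TGFB1 and 1302 bp in Ctrl. Its Ctrl peak lay upstream of the Myd88 start and was assigned to the neighbouring gene Acaa1a, while the TGFB1 peak reached 784 bp into Myd88. The next largest ratios were those of Ankrd40 (1903 bp in TGFB1, 1000 bp in Ctrl), the clathrin adaptor gene Ap1s2 (2155 bp, 1158 bp), the synaptic gene Rims2 (1854 bp, 1004 bp), the heterochromatin gene Hp1bp3 (1873 bp, 1017 bp), Zfp609 (2330 bp, 1271 bp), the MAX partner gene Mxd3 (2110 bp, 1180 bp) and the non-coding Gm6634 (2273 bp, 1276 bp), each with the TGFB1 length first. The 8 largest added lengths were those of Irx5 (1332 bp), Arhgef11 (1243 bp), Myd88 (1196 bp), Nfil3 (1171 bp), Pcgf2 (1088 bp), Zfp609 (1059 bp), Gm6634 (997 bp) and Ap1s2 (997 bp).

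Peak scores did not set the widened peaks apart by direction. The score, a value of the peak caller that is not scaled between libraries, was higher in TGFB1 than in Ctrl at 176 of the 250 (70.4%), against 69.6% of all pairs. It was lower in TGFB1 at 70 and equal at 4. The median score of the 250 was 63.5 in TGFB1 and 50.5 in Ctrl, below the medians of the other pairs, which were 95 in TGFB1 and 82 in Ctrl. The scores of single peaks went both ways at the largest ratios: Arhgef11 had 38 in TGFB1 and 65 in Ctrl, while Nfil3 had 56 in TGFB1 and 40 in Ctrl.

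The share of pairs that were widened dropped steeply with the length and the score of the Ctrl peak. Of pairs with a Ctrl peak of 1000 to 1099 bp, 100 of 284 were widened (35.2%, 29.9 to 40.9), and 20 of these 100 Ctrl peaks were exactly 1000 bp, the shortest length in each list. The share was 14.3% at 1100 to 1299 bp, 3.66% at 1300 to 1499 bp and 0.626% at 1500 to 1799 bp, and none of 3077 longer pairs was widened. Part of this gradient is set by the rule, since a Ctrl peak above 1785 bp cannot reach the ratio below a TGFB1 length of 2500 bp, and a short Ctrl peak needs fewer added bases. By score, 159 of 1740 pairs with a Ctrl score of 25 to 57 were widened (9.14%, 7.87 to 10.6), 3.54% at 58 to 73, 1.69% at 74 to 90, and 4 of 1609 and 4 of 1587 at higher scores. Low scores went with short Ctrl peaks, and at equal Ctrl length the order by score was kept at 1000 to 1099 bp and at 1500 to 1799 bp but not between. At 1100 to 1299 bp, 10.7% were widened at scores of 25 to 57 (8.04 to 14.1), 20.5% at 58 to 73 (14.9 to 27.7) and 23.8% at 74 to 90, or 15 of 63 pairs.

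**Figure D2:**
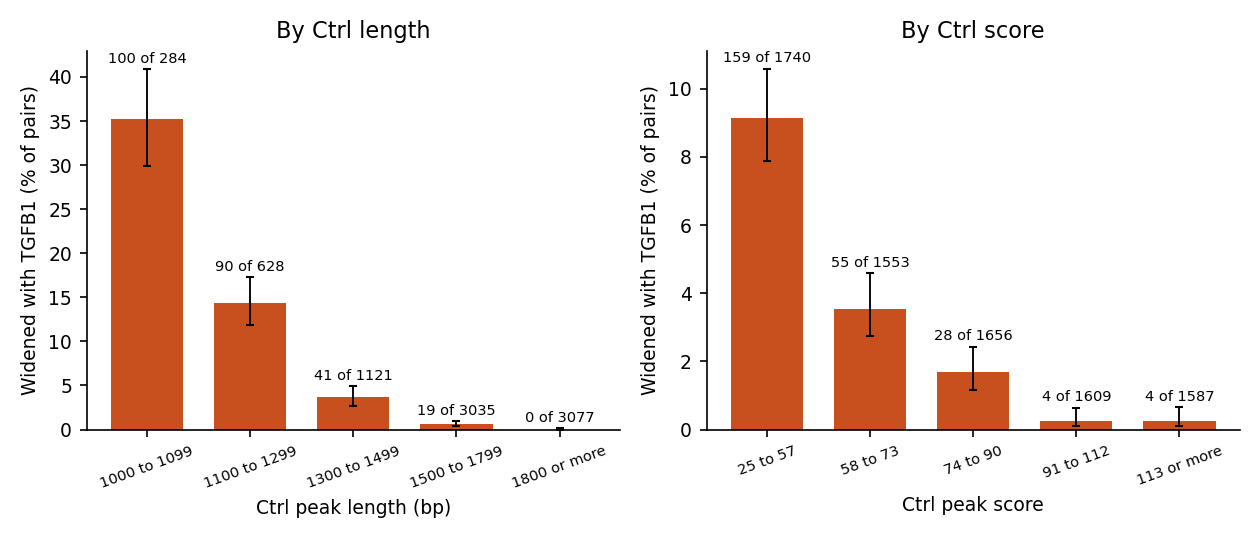
Percent of promoter pairs widened in TGFB1 (vertical axes) in 5 groups of Ctrl peak length in bp (left) and of Ctrl peak score (right), with 95% Wilson intervals and the counts above each bar. The share was 35.2% in the shortest and 9.14% in the lowest-scoring group and decreased from group to group, apart from the highest 2 score groups, with 4 widened peaks each.

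Over the 250 regions neither side of the Ctrl peak gained more often than the other, although single regions were mostly uneven. For 249 regions the strand of the gene was known. The downstream addition was the larger at 123 of them (49.4%, 43.2 to 55.6) and the upstream addition at 125, against 49.7% with more added downstream among other pairs. The medians were 319 bp upstream and 310 bp downstream. At 140 of the 249 the larger side gained at least 80% of the net added length. Both edges moved outward at 187 of the 249 (75.1%), only the upstream edge at 30 and only the downstream edge at 32. Rock2 belonged to those with a shifted peak, with 1041 bp added upstream and 318 bp lost downstream.

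The Ctrl peaks lay mostly downstream of the start, and the added bases often brought the start itself under the peak. The TSS was under the TGFB1 peak at 228 of the 249 (91.6%) and under the Ctrl peak at 163 (65.5%). Among the other pairs it was under the TGFB1 peak at 93.3% and under the Ctrl peak at 91.3%. These extents are the ones that chose the regions, and the Ctrl peaks of the other pairs were longer. At equal Ctrl length the TSS was under the Ctrl peak at 66.7% of widened regions against 57.6% of other pairs at 1000 to 1099 bp, 63.3% against 83.3% at 1100 to 1299 bp, 65.9% against 90.7% at 1300 to 1499 bp and 68.4% against 94.1% at 1500 to 1799 bp. At 68 of the widened regions the TSS was under the TGFB1 peak only, and at 3 under the Ctrl peak only. Seen from the TSS, the TGFB1 peaks reached a median of 514 bp upstream and 1223 bp downstream, and the Ctrl peaks 168 bp upstream and 1020 bp downstream. The TGFB1 reach was near that of the other pairs, which was a median of 484.5 bp upstream and 1255.5 bp downstream.

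**Figure D3:**
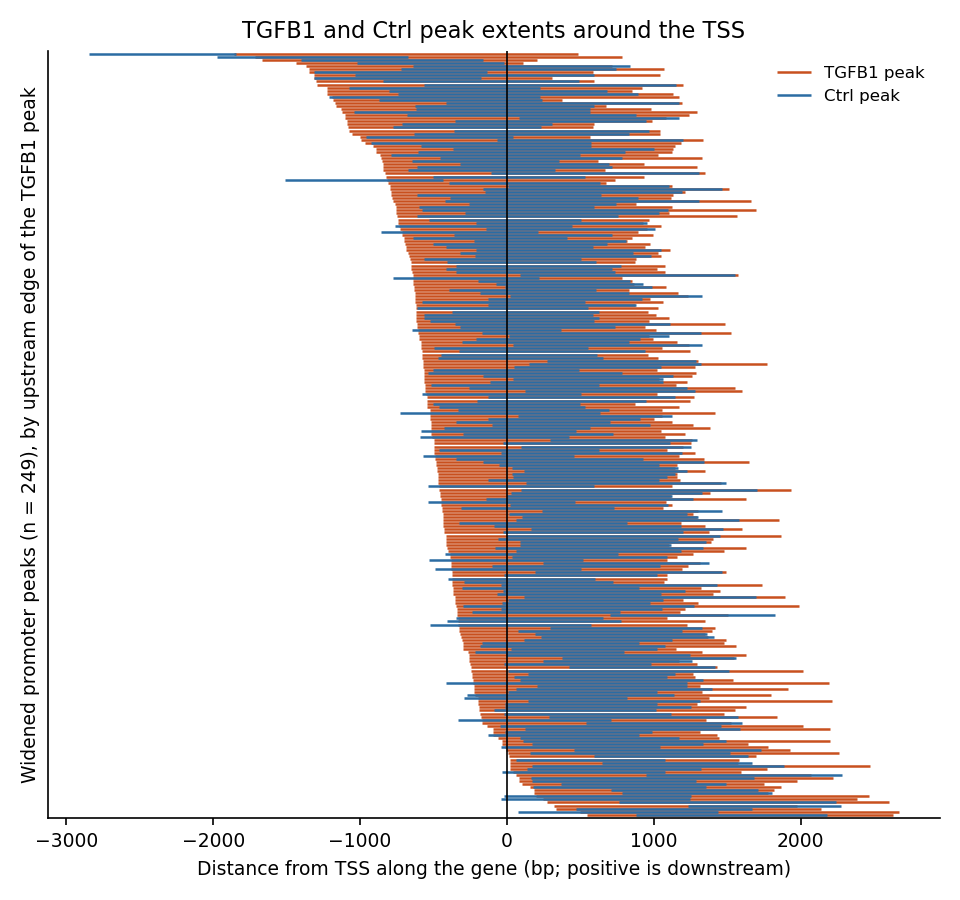
Extent of the TGFB1 peak (orange) and of the Ctrl peak (blue, drawn over it) around the TSS for 249 widened promoter peaks, 1 row each, in bp along the gene with downstream to the right and rows ordered by the upstream edge of the TGFB1 peak. Orange shows on both sides of blue in most rows, and the TSS line is crossed by 228 TGFB1 peaks and by 163 Ctrl peaks.

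In the deposited annotation the centres of the 250 TGFB1 peaks lay in introns at 142, at the promoter or TSS at 49, in exons at 34, in 5′ UTRs at 15, at transcript ends at 8 and in non-coding transcripts at 2. Of the genes, 240 were protein-coding. The start of a further gene lay in the added bases at 14 of the 250 (5.6%), against 0.861% of other pairs, which had fewer added bases, and in the TGFB1 peak as a whole at 13.2% against 17.7%. Among the 14 were Slc30a1 beside 1700034H15Rik, Ppp1r10 beside Mrps18b, Cd151 beside Gm10575 and Naif1 beside Slc25a25. At 10 regions the TGFB1 and Ctrl peaks were assigned to different genes, so the gene name is that of the TGFB1 peak.

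Widened peaks were more frequent on the X chromosome than on the autosomes. They numbered 20 of 187 pairs on X (10.7%, 7.03 to 15.9) and 230 of 7958 on the autosomes (2.89%, 2.54 to 3.28). Among the autosomes the share ranged between 1.37% on chromosome 19 and 5.33% on chromosome 13, whose interval of 3.31 to 8.49 overlapped that of X. The X-linked genes included Ap1s2, Nbdy, Gpr173, Maoa (an amine oxidase, 2317 bp in TGFB1 and 1368 bp in Ctrl), Stag2 (a cohesin subunit, 1888 bp and 1121 bp), Pdha1 (a pyruvate dehydrogenase subunit, 2133 bp and 1287 bp) and Rlim (a ubiquitin ligase known for its role in X inactivation, 1890 bp and 1255 bp), with the TGFB1 length first.

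X peaks were also shorter and lower in score, and these measures moved with the share. The pairs on X had a median Ctrl length of 1436 bp and a median Ctrl score of 55, against 1710.5 bp and 82 on the autosomes. At equal Ctrl length the share on X was 27.8% against 35.7% on autosomes at 1000 to 1099 bp, 21.7% against 13.7% at 1100 to 1299 bp, and 8.89% against 3.44% at 1300 to 1499 bp. With only 5, 10 and 4 widened peaks on X in these groups, the intervals of X and autosomes overlapped in each of the 3, for example 12.3 to 35.6 on X and 11.2 to 16.8 on autosomes at 1100 to 1299 bp. At Ctrl scores of 25 to 57 the share was 14.4% on X (9.07 to 22.1) and 8.78% on autosomes (7.50 to 10.3), at 58 to 73 it was 7.84% (3.09 to 18.5) and 3.40% (2.59 to 4.44), and at 74 to 90 it was 0 of 15 on X and 1.71% on autosomes. With a score of 50 or more in each list it was 4 of 88 on X and 1.64% on autosomes. Pairs narrowed by the same factor numbered 3 of 187 on X and 50 of 7958 on autosomes.

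**Figure D4:**
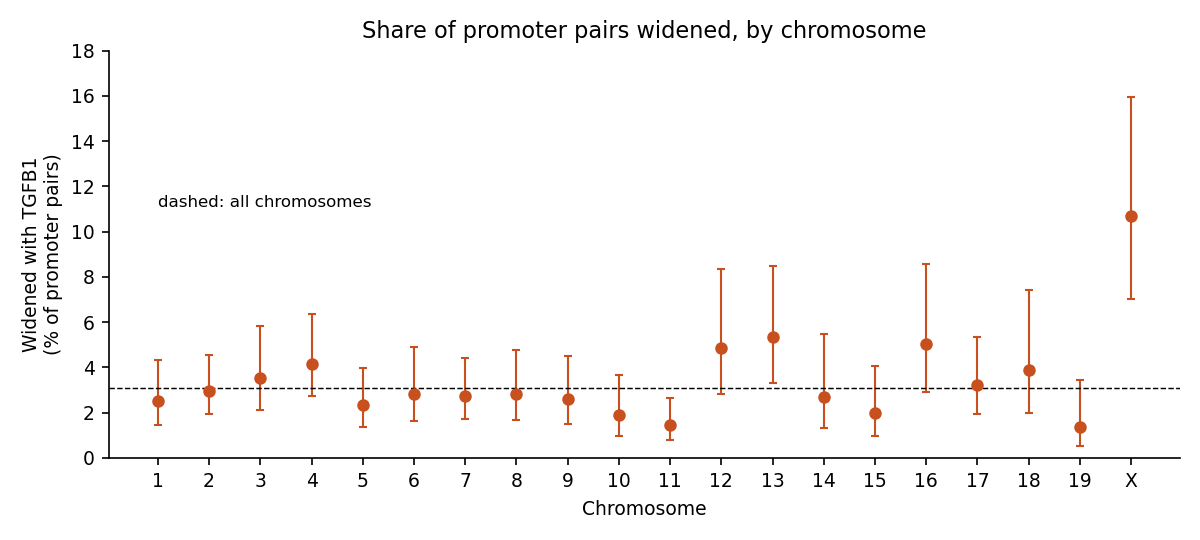
Percent of promoter pairs widened in TGFB1 (vertical axis) on each chromosome, as points with 95% Wilson intervals, with the value over all chromosomes (3.07%) as a dashed line. X stands at 10.7% with an interval of 7.03 to 15.9, and the autosomes lie between 1.37% and 5.33%.

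The TGFB1+miR-9-LOF list was not used in the choice and gives a further readout at the same promoters. A TGFB1+miR-9-LOF peak was present at 58 of the 250 widened regions (23.2%, 18.4 to 28.8) and at 4723 of 7895 other pairs (59.8%, 58.7 to 60.9), with 58.7% over all pairs. Where present, it had a median length of 1205 bp (quartiles 1078.75 and 1354.5 bp) at widened regions and 1350 bp (quartiles 1160 and 1564 bp) at other pairs. At all 58 regions it was shorter than the TGFB1 peak, as at 98.5% of the other pairs with a peak. It was shorter than the Ctrl peak at 39 of the 58 (67.2%) and longer at 19, against 96.7% shorter among other pairs, but the widened regions were chosen for their short Ctrl peaks.

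How the widened regions stood in TGFB1+miR-9-LOF depended on which list they were matched on. Against pairs of equal TGFB1 length, fewer of them had a TGFB1+miR-9-LOF peak in each of the 5 groups, for example 15.3% against 52.7% of other pairs at 1500 to 1799 bp, 26.3% against 78.1% at 1800 to 1999 bp, and 17 of 34 against 82.8% at 2000 to 2199 bp. In these groups the rule gave the widened regions the shorter Ctrl peaks. Among other pairs the share rose with Ctrl length, from 8.15% at 1000 to 1099 bp to 82.2% at 1800 bp or more, so the choice can set this difference. Against pairs of equal Ctrl length the difference had no constant direction, with 6.0% against 8.15% at 1000 to 1099 bp, 30.0% against 13.4% at 1100 to 1299 bp, 39.0% against 30.6% at 1300 to 1499 bp and 47.4% against 58.9% at 1500 to 1799 bp. Against pairs of equal Ctrl score the share was 11.3% (7.28 to 17.2) against 19.4% at scores of 25 to 57, while in the 4 higher groups the interval of the widened regions held the value of the other pairs. In groups of TGFB1 score the shares were 11.5% against 18.3%, 31.8% against 42.3%, 30.4% against 61.4%, 62.5% against 80.7% and 4 of 4 against 93.9%, in order of score.

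The lengths showed the same split, with the same limit from the choice of regions. In groups of equal Ctrl length the median TGFB1+miR-9-LOF peak was longer at widened regions than at other pairs in each of the 4 groups, with 1124.5 bp against 1014 bp, 1162 bp against 1079 bp, 1271 bp against 1143 bp and 1331 bp against 1243 bp in order of Ctrl length. In groups of equal TGFB1 length it was shorter at widened regions in 4 of 5 groups, for example 1312 bp against 1463 bp at 2000 to 2199 bp, and the exception, at 1000 to 1499 bp, held 1 such peak at a widened region. The quartiles of widened regions and other pairs overlapped in each group of Ctrl length, and the medians rested on 6, 27, 16 and 9 widened regions. At regions with a TGFB1+miR-9-LOF peak, that peak covered 82.5% of the Ctrl-peak bases and 24.3% of the added bases, against 72.5% and 12.7% at other pairs. The choice of short Ctrl peaks can set this contrast. Ctrl peaks at these regions had a median length of 1259.5 bp, against 1822 bp at other pairs with such a peak. The 3 libraries may differ in depth or enrichment, whose part in these values was not tested.

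**Figure D5:**
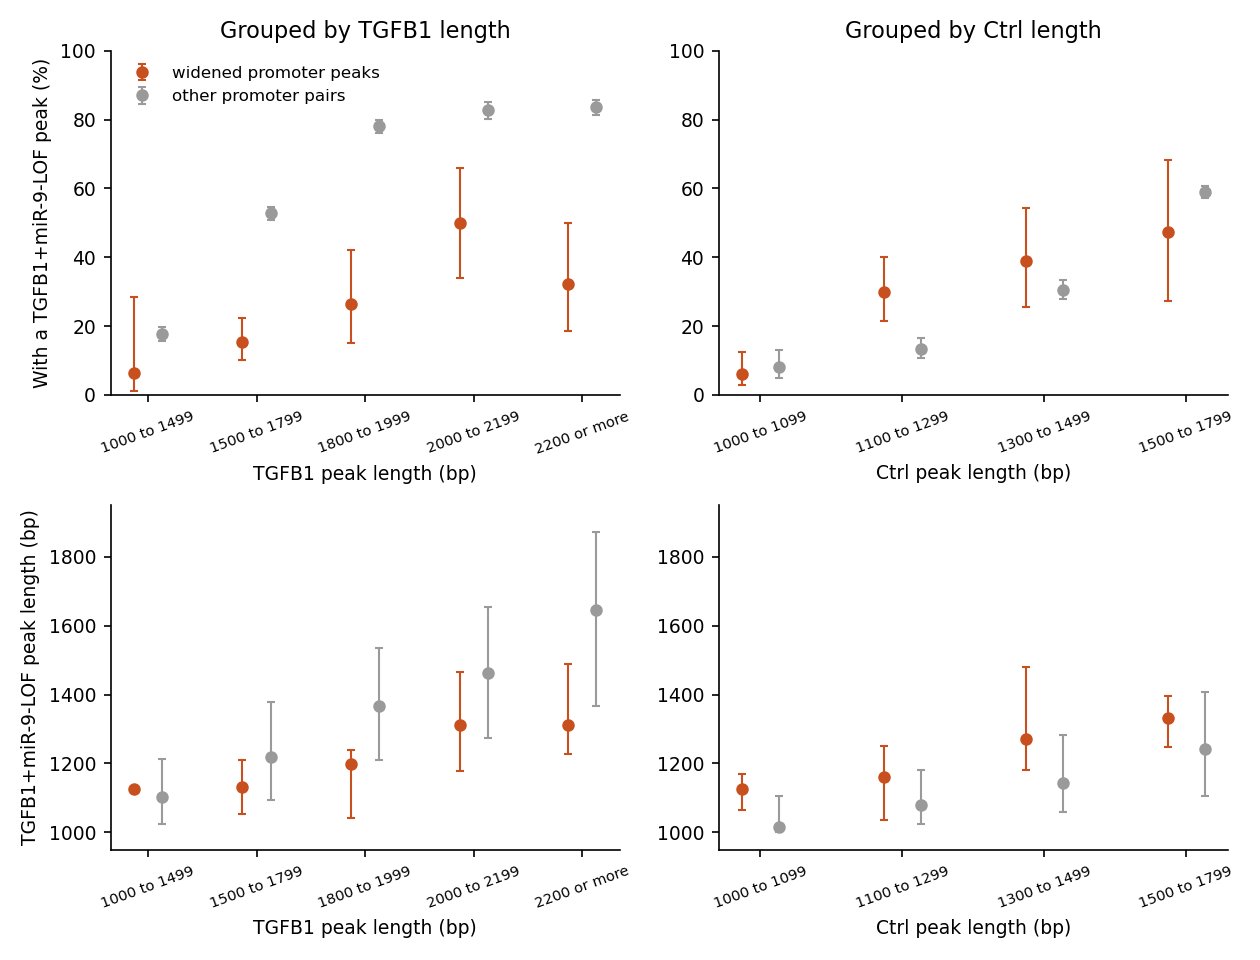
Percent of pairs with a TGFB1+miR-9-LOF peak (top, with 95% Wilson intervals) and median length of that peak in bp (bottom, with quartiles) at widened promoter peaks (orange) and other promoter pairs (grey), in groups of TGFB1 peak length (left) and Ctrl peak length (right). At equal TGFB1 length the widened peaks lie below the others in every group for the percent, and at equal Ctrl length their medians lie above the others in all 4 groups. The rule that chose the widened peaks used both of these lengths.

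The longest TGFB1+miR-9-LOF peaks among the widened regions were those of Lpin2, a phosphatidate phosphatase gene with 1752 bp in TGFB1+miR-9-LOF, 2119 bp in TGFB1 and 1328 bp in Ctrl, and Pdha1, with 1729 bp in TGFB1+miR-9-LOF, 2133 bp in TGFB1 and 1287 bp in Ctrl. Dek (1670 bp), Fosb (1641 bp), Gm10575 (1554 bp) and Rlim (1552 bp) followed in TGFB1+miR-9-LOF. Regions without such a peak had a median TGFB1 score of 61, against 78 for those with it. Among the other pairs these medians were 72 without and 111 with such a peak. The highest TGFB1 scores with no TGFB1+miR-9-LOF peak were those of the chromatin reader gene Zmynd11 (113), Prrc2b (110), Ppp1r21 (104) and the exonuclease gene Exo1 (101).

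Of 39 measured pairs of the TGFB, activin and BMP pathway none was widened, where 3.07% of all pairs were, and of 36 pairs of extracellular matrix and myofibroblast genes only Myl9 was, counts too small to part these lists from all pairs. Myl9 had 1789 bp in TGFB1 and 1076 bp in Ctrl, and no TGFB1+miR-9-LOF peak. The median length ratios of these lists were 1.117 and 1.08, against 1.04 over all pairs, and their median Ctrl lengths were 1860 bp and 1914.5 bp, at which no pair could meet both limits. Pdgfra, a receptor that marks fibroblasts and was named after its values were seen, had 1509 bp in TGFB1 and 1007 bp in Ctrl. The matrix and myofibroblast list was not complete, so Myl9 was not the only such gene with a widened peak. Outside the list, Lamb2 (2074 bp in TGFB1, 1305 bp in Ctrl) and Col8a1 (1428 bp, 1000 bp) were widened. So were Emilin1 (1576 bp in TGFB1, 1116 bp in Ctrl) and Tagln2 (2421 bp, 1642 bp), all named after their values were seen.

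The lists of immediate early genes, transcription factors and chromatin genes held 0 to 2 widened promoters each, against 3.07% of all pairs. Of 34 immediate early pairs, 2 were widened: Crem, a CRE-binding modulator, with 2179 bp in TGFB1 and 1421 bp in Ctrl, and Fosb, an AP-1 subunit, with 1641 bp in TGFB1+miR-9-LOF, 2014 bp in TGFB1 and 1414 bp in Ctrl. Of 28 pairs of mesenchymal and developmental transcription factors, Tbx3 (2079 bp in TGFB1, 1302 bp in Ctrl) and Foxf1, a forkhead factor of lung mesenchyme (1933 bp in TGFB1, 1276 bp in Ctrl), were widened. None of 22 pairs of H3K4 methylation genes was widened. Their median Ctrl length was 1920 bp, above the 1785 bp beyond which no pair could meet both limits. The medians were also above it for immediate early genes (1925 bp), these transcription factors (1805.5 bp) and looping and Mediator genes (1828.5 bp). The rule thus kept many pairs of these lists out in advance. Of 22 pairs of looping and Mediator genes, the cohesin subunit genes Stag1 (1595 bp in TGFB1, 1022 bp in Ctrl) and Stag2 were.

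The remaining lists held 0 to 9 widened promoters each, against 3.07% over all pairs. Among 60 pairs of cytosolic ribosomal proteins only Rpl36a was widened, among 72 of the respiratory chain only Ndufs6, among 57 of mitochondrial ribosomal proteins none, among 56 of splicing factors only Hnrnpa0, and among 177 of ubiquitin ligases and proteases Trim26, Ube2a and Fbxw17. The 242 pairs of zinc finger Zfp genes held 9 (3.72%), led by Zfp609, Zfp799 (1794 bp in TGFB1, 1156 bp in Ctrl), Zfp945 and Zfp961. The 125 pairs of solute carriers held 5, led by the chloride cotransporter gene Slc12a2 (2145 bp in TGFB1, 1300 bp in Ctrl). The 105 pairs on the signalling kinase list held Pik3r3 (a regulatory subunit of a kinase), Cdk18 and Stk39. None of 14 pairs of microRNA processing genes or of 27 pairs of tumour suppressors was widened, and of 18 pairs of G-quadruplex helicases and binders only Ercc2 was. Median Ctrl lengths exceeded the 1785 bp bound for cytosolic ribosomal proteins (2016 bp), microRNA processing (1980 bp), splicing factors (1896.5 bp) and G-quadruplex binders (1854 bp). Many of their pairs could thus not be widened by the rule. The medians of the other lists named here were below that bound. The lists were not complete. Mrps18b, which encodes a mitochondrial ribosomal protein, was among the 250 but outside its list. So were the ubiquitin ligase genes Rlim and Mul1 and the splicing genes Snrnp27 and Snw1.

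Further groups were collected after the widened genes had been read, so their counts support nothing. Homeobox, forkhead and T-box genes gave 7 of 43 pairs: Irx5, Hoxa4 (1715 bp in TGFB1, 1038 bp in Ctrl), Foxd1, Tbx3, Foxf1 and the neighbours Dlx1 (2019 bp in TGFB1, 1285 bp in Ctrl) and Dlx2 (1414 bp in TGFB1, 1001 bp in Ctrl). Among genes shown above by sequence, Rock2 had 1849 bp in TGFB1 and 1126 bp in Ctrl, and Enah had 2034 bp in TGFB1 and 1312 bp in Ctrl. Polycomb genes gave Pcgf2, Phc1 (2418 bp in TGFB1, 1460 bp in Ctrl) and Sfmbt1. Of 3 measured pairs of NF-Y subunit genes, which encode the CCAAT-binding factor, Nfyc (1757 bp in TGFB1, 1038 bp in Ctrl) and Nfyb (1648 bp in TGFB1, 1124 bp in Ctrl) were widened.

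The genes chosen by the study were not among the 250, and the limits barred Zdhhc5, Ncl and Ep300 in advance. Their Ctrl peaks (1911, 2669 and 2143 bp) were longer than the 1785 bp beyond which no pair could meet both limits. Zdhhc5, a palmitoyltransferase gene, came nearest in ratio alone, with 1905 bp in TGFB1+miR-9-LOF, 2606 bp in TGFB1 and 1911 bp in Ctrl (TGFB1 to Ctrl ratio 1.36). Ncl, which encodes nucleolin, had 2060 bp in TGFB1+miR-9-LOF, 3093 bp in TGFB1 and 2669 bp in Ctrl (ratio 1.16). Lzts2 (ratio 1.10) and Hdac7 (ratio 1.03) had no TGFB1+miR-9-LOF peak, and Ep300, a histone acetyltransferase gene, had a ratio of 1.14.

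In sequence, the bases added at the widened regions were richer in G and C than those added elsewhere when all lengths were pooled. Their GC content had a median of 52.0% (quartiles 45.2 and 58.3), against 47.4% (41.8 and 54.5) at the 4845 other pairs with at least 100 added bases, and their observed to expected CpG ratio was 0.49 against 0.37, but at Ctrl lengths of 1000 to 1099 bp that ratio was 0.48 against 0.54. The Ctrl-peak bases themselves had 57.2% GC against 55.4%. In groups of equal Ctrl length the added GC was 52.6% against 51.5% at 1000 to 1099 bp, 49.7% against 49.4% at 1100 to 1299 bp, 54.8% against 47.4% at 1300 to 1499 bp and 51.7% against 46.6% at 1500 to 1799 bp. The 2 groups of longer Ctrl peaks, with 41 and 19 widened regions, thus showed a gap that the shorter ones did not.

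G-quadruplex matches within 500 bp of the TSS were found at 161 of 249 widened regions (64.7%, 58.5 to 70.3) and at 58.8% of other pairs (57.7 to 59.9). In the same groups of Ctrl length the shares were 62.6% against 63.6%, 63.3% against 60.6%, 68.3% against 57.8% and 73.7% against 57.6%, and the interval of the widened regions held the value of the other pairs in each. Of short motifs searched on both strands in the 300-base windows, the GC box GGGCGG was found at 71.4% of the widened regions, 72.2% of other pairs and 35.7% of all windows. The SMAD motifs were found at 13.7%, 13.9% and 21.0% in that order for CAGACA, and at 26.4%, 24.9% and 11.9% for GGCGCC, which can overlap a GC box. CCAAT was found at 42.3%, 38.2% and 37.4%, the AP-1 motif TGANTCA at 3 of 182 (1.65%), 3.76% and 7.81%, and the ETS motif CCGGAAG at 17.0%, 22.1% and 8.86%. The interval of the widened regions held the value of the other pairs for each of these 6 motifs.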

How the data were processed

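H3K4me3 ChIP-seq was deposited for 3 libraries, 1 a group, and groups were taken from the treatment labels. The notes of the submitters list HOMER, bedtools, MACS3, Bowtie2 (on mm10), Trimmomatic, deepTools 3.5.1 and Picard 1.119, and the study describes broad MACS3 peaks called on single samples. Whether an input control was used is not given in the sources used here. Each list deposited by the authors held the start, end, distance to the nearest TSS and gene of each peak, with a peak score as an unscaled score per library. No peak was shorter than 1000 bp, so lengths were bounded below, and depth was unknown. For H3K4me3 peaks the study gives a MACS3 setting that extends reads to 1000 bp, longer than most of the added lengths. Positions given to the base are therefore edges of called peaks, whose precision is not known. The precision of the shares comes from their number of regions alone.

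Lengths were computed as end minus start plus 1 bp, pairs needed 1 bp of overlap, and genes got strand and TSS from RefSeq GRCm38.p6. Sequences were read from the RefSeq promoter table and genome of that build. Python 3.11.15, pandas 2.3.3, NumPy 2.4.6, SciPy 1.17.1, pysam 0.24.0 and matplotlib 3.10.9 were used, and the pairing was tested on simulated data. Members and gene lists were chosen with earlier results of these data known, and 6 lists were added after the members were seen. Named were the 12 largest ratios and 8 largest added lengths, up to 4 members a list, the pairs nearest the limits, the 6 longest TGFB1+miR-9-LOF peaks, the 4 highest TGFB1 scores without one, and the study's genes. Other genes named were chosen after their values were seen. Alternatives changed the score minimum, ratio, length, distance and overlap limits. Results of 2 gene lists are not reported here.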

Additional observations from a re-analysis of the deposited data

How the results depend on the processing

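The count of 250 widened promoters became 525 with a ratio limit of 1.3, 115 with a limit of 1.5, 115 with a score of 50 or more in each list, and 150 when Ctrl peaks under 1100 bp were left out, a setting chosen after seeing the data. It stayed between 230 and 292 with 500 bp or more added in place of the ratio, no upper length, a promoter distance of 1000 bp, an overlap of 50% of the shorter peak, or autosomes only, also chosen after seeing the data. The share with a TGFB1+miR-9-LOF peak, 23.2%, became 29.5% at the limit of 1.3, 15.7% at 1.5, 8.70% with the score minimum, 35.8% with 500 bp or more added and 34.7% without the shortest Ctrl peaks, and was below that of the other pairs in each of the 9 settings (28.3% with the score minimum). None of these settings matched the pairs on Ctrl length, and at equal Ctrl length the difference had no constant direction. The repeated order can thus come from the choice of short Ctrl peaks. The median TGFB1+miR-9-LOF length, 1205 bp, became 1318.5 bp with the score minimum and 1291.5 bp with 500 bp or more added. The share extended more downstream, 49.4%, kept within its interval in all 9 settings. The limit of 1 score for lists that are not scaled to each other removed unequal parts of them. No paired analysis was possible because each group had 1 library, and for the same reason no replicate could be left out. A peak missing in TGFB1+miR-9-LOF may lie below the calling threshold at that library's unknown depth.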
